A study of Mus musculus with 12 samples.

Results

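The death receptors and the apoptotic caspases they engage were followed through Con A hepatitis as 8 genes, Fas, Tnfrsf1a, Tnfrsf1b, Tnfrsf10b, Tnfrsf12a, Casp8, Casp6 and Cflar. They were chosen by symbol, and all 8 were found among the 11289 genes of the liver expression table. Liver RNA of 12 C57BL/6J mice had been sequenced, with 4 mice in each of 3 groups. The control group is labelled only as control, and the labels do not say whether its mice received an injection of vehicle. The Con A + PBS group (labelled Con A) received Con A (concanavalin A, a lectin from jack bean that stimulates T cells) at 15 mg/kg into the tail vein and PBS intravenously 30 min later. The Con A + hWJ-MSCs group (labelled Con A + MSCs) received the same dose of Con A and then 2000000 mesenchymal stromal cells from human umbilical cord Wharton's jelly in 200 µL of PBS. Livers were taken at 24 h. The labels give an age of 8 to 10 weeks for all mice. The study's methods give a lower age and a lower number of cells, and add that the mice were male.

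Death receptors are members of the TNF receptor superfamily that carry a death domain in their cytoplasmic tail. After ligand binding, Fas and the TRAIL receptor recruit the adaptor FADD and the initiator caspase CASP8, whereas TNF receptor 1 first assembles a complex of TRADD, RIPK1 and ubiquitin ligases that signals survival through NF-κB and can later turn to CASP8. CFLAR (also called c-FLIP) resembles CASP8 without its protease activity and competes with it in these complexes. In hepatocytes the signal of CASP8 usually needs the mitochondrial arm, in which BID, cytochrome c and APAF1 lead to CASP9 and the caspases downstream of it, and ligands of this family are classical mediators of T cell-driven liver injury.

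After Con A, 5 of the 8 genes rose, and each of the 5 was higher in every Con A + PBS mouse than in any control mouse. The largest changes were those of Tnfrsf12a, at 12.5-fold, and Tnfrsf10b, at 7.8-fold, followed by Tnfrsf1b at 2.14-fold, Tnfrsf1a at 1.73-fold and Casp8 at 1.69-fold. With hWJ-MSCs, Tnfrsf10b was 3.65-fold and Tnfrsf1b 1.73-fold lower than with PBS, Casp6 was 1.54-fold higher, and Casp8 differed by a log2 fold change of -0.04. A gene was called changed here when its adjusted p (limma, Benjamini-Hochberg over all 11289 genes) was below 0.05 and its fold change above 1.5. Under this rule 19.5% of all genes were called higher and 19.2% lower after Con A, and 4.2% were called higher and 4.38% lower with hWJ-MSCs than with PBS. The call for Tnfrsf10b was lost without Con A + PBS replicate 1 (adjusted p = 0.0696) or without hWJ-MSC replicate 3 (adjusted p = 0.0547), and those for Tnfrsf1b and Casp6 were lost without any of several mice, given below. Tnfrsf10b also passed the lowest scores kept in the table only through the Con A + PBS mice, which favours its differences from that group.

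Every value below is a score deposited per gene and mouse, a whole number already normalized between mice and not a read count, so sequencing depth is unknown. The totals of the 12 mice lay between 17649654 and 17657159, and the median score was 352 in each. Con A + PBS replicate 4 stood apart from its group, with a mean correlation over genes of 0.9426 with the other mice of the group against 0.9602 to 0.972 in the other 11 mice. It was the highest of its group in 5 of the 8 genes and the lowest in the remaining 3, so the calls of the 8 genes are also given without it. The sums of cell type genes are given only with it. The tissue was labelled liver, and the hepatocyte marker Alb held the same highest score of 341028 in all 12 mice. The mice of a group are different animals, and the fits below use the spread between them.

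The files place each gene on GRCm38 (mm10) through 1 transcript. Fas lies at chr19:34290659-34327770 on the plus strand, Tnfrsf1b at chr4:145213463-145246870 on the minus strand, Tnfrsf10b at chr14:69767472-69784403 on the plus strand and Tnfrsf12a at chr17:23675447-23677449 on the minus strand. Casp6 lies at chr3:129901425-129914103 and Casp8 at chr1:58795374-58847503, both on the plus strand. These 6 transcripts are protein-coding in GENCODE M21. The transcripts listed for Tnfrsf1a (chr6:125349362-125350035) and Cflar (chr1:58711508-58713886), both on the plus strand, are short processed transcripts of 2 exons without a coding sequence. Whether the scores of these rows count the whole gene or that transcript is not stated in the sources used here, and this limits what the values of Tnfrsf1a and Cflar measure. Cflar and Casp8 are neighbours, with 36348 bases between their RefSeq ends.

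The RefSeq windows of 250 bases before the start site (GRCm38.p6) were searched on both strands for motifs of the transcription factors that cytokines and damage activate, and 4 of them are printed because they hold the matches to the GAS motif or the largest number of GC boxes. Windows were found for 7 of the 8 genes, all but Tnfrsf10b. Capitals mark TTCNNNGAA (the GAS motif of STAT proteins) in the first 3 sequences, with GAAA, any 2 bases and GAAA (the core of the ISRE motif of interferon-induced factors, here on the other strand) at the end of the third, and GGGCGG (the GC box of Sp-family factors, either strand) in the fourth. Each sequence is given 5′ to 3′ along its gene and ends just before the start site.
Fas, chr19:34290409-34290658 (plus strand): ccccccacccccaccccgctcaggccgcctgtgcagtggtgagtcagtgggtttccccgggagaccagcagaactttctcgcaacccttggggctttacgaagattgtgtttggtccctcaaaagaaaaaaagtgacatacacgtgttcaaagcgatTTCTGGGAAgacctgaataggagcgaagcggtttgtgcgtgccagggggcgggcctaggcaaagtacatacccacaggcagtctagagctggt
Tnfrsf1a, chr6:125349473-125349722 (plus strand): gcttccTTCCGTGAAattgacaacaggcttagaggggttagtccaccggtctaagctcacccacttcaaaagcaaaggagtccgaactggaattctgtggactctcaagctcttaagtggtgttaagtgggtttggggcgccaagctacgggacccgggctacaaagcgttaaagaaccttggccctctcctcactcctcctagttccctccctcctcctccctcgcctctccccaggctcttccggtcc
Tnfrsf1b, chr4:145246871-145247120 (minus strand): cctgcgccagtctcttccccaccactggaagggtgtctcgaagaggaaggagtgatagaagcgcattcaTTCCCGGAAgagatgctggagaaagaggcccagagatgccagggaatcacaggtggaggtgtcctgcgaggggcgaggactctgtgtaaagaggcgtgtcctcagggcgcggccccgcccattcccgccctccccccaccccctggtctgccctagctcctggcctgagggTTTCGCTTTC
Tnfrsf12a, chr17:23677450-23677699 (minus strand): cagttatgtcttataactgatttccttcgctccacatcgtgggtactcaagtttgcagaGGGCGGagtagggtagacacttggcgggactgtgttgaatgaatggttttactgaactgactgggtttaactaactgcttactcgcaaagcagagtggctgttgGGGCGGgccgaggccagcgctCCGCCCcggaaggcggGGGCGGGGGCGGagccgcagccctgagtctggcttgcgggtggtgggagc

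The GAS letters begin 93 bases before the start site in Fas (TTCTGGGAA), 244 bases before it in Tnfrsf1a (TTCCGTGAA) and 181 bases before it in Tnfrsf1b (TTCCCGGAA). Thus 3 of the 7 windows held the motif, against 7.02% of all 32851 windows of this length. The ISRE core was found in the window of Tnfrsf1b alone among the 7, and in 2.98% of all windows. The AP-1 letters TGANTCA were found in Fas, 211 bases before the start site, and in 6.75% of all windows. The GC box was found in 4 of the 7 windows, 5 times in Tnfrsf12a with 2 of these directly adjoining, and in 32.7% of all windows. The κB consensus and the p53 half-site were found in 0 of the 7 windows and in 7.25% and 7.13% of all windows. A match of letters is a description of these windows, and binding was not measured. For Tnfrsf1a the start of the listed transcript lies 361 bases upstream of the RefSeq start used here, and for Casp8 7128 bases upstream.

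Among the receptors with a death domain, Fas, the receptor of FAS ligand, had scores of 354, 372, 468 and 328 in control replicates 1 to 4. It had 520, 628, 580 and 246 in the Con A + PBS mice and 654, 629, 607 and 542 in the Con A + hWJ-MSCs mice. All 4 mice with hWJ-MSCs and 3 of the 4 with PBS were above every control mouse, while Con A + PBS replicate 4 was below every one. The means were 380 ± 61.1, 494 ± 171 and 608 ± 48.0 (SD, n = 4). Fas was 1.61-fold higher with hWJ-MSCs than in the control group (log2 fold change 0.68, 95% interval 0.16 to 1.21, limma adjusted p = 0.0381). The Con A + PBS group differed from the control group by 0.30 (95% interval -0.22 to 0.82, adjusted p = 0.306), and without replicate 4 by 0.61 (0.32 to 0.89, adjusted p = 0.0021), which was then called. The difference between the Con A groups was 0.38 (-0.14 to 0.91, adjusted p = 0.274), and 0.079 (adjusted p = 0.725) without replicate 4. The call for hWJ-MSCs against control did not survive 7 of the 12 refits that omitted a single mouse, namely without control replicate 1, 2 or 4 (adjusted p 0.0745 to 0.0958) or without any one of the mice given hWJ-MSCs (0.0503 to 0.0872).

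Tnfrsf1a, which encodes TNF receptor 1, the TNF receptor with a death domain, had 1458, 1724, 1806 and 1775 in the control mice. Its scores were 2898, 2690, 2784 and 3356 in the Con A + PBS mice and 2466, 2196, 2306 and 2645 in the Con A + hWJ-MSCs mice. The 3 groups did not overlap, and the mice with hWJ-MSCs lay between the other groups. The mean rose from 1691 ± 159 to 2932 ± 295 after Con A (SD, n = 4, log2 fold change 0.79, SE 0.11, limma adjusted p = 8.1e-05). It was 2403 ± 196 with hWJ-MSCs, which differed from Con A + PBS by -0.29 (95% interval -0.52 to -0.047, adjusted p = 0.0903) and from the control group by 0.51, at an adjusted p of 0.00311 but only 1.42-fold. Those last 2 differences were not called.

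Tnfrsf1b encodes TNF receptor 2, which has no death domain, is prominent on lymphocytes and other leukocytes and binds TRAF2. It had 506, 652, 398 and 731 in the control mice, 1231, 862, 1084 and 1754 in the Con A + PBS mice and 706, 660, 705 and 692 in the Con A + hWJ-MSCs mice. All Con A + PBS mice exceeded all mice of both other groups, whereas the mice with hWJ-MSCs lay within the range of the control mice and close to each other. The mean rose from 572 ± 149 to 1233 ± 379 after Con A (SD, n = 4, log2 fold change 1.10, SE 0.21, limma adjusted p = 9.3e-04) and was 691 ± 21.5 with hWJ-MSCs. With hWJ-MSCs it fell by 0.79 relative to Con A + PBS on the log2 scale (95% interval -1.25 to -0.32, adjusted p = 0.0369). This call did not survive 6 of the 12 refits that omitted a single mouse, without Con A + PBS replicate 1, 3 or 4 (adjusted p = 0.0921, 0.0581 and 0.0795) or without hWJ-MSC replicate 1, 2 or 3 (0.0682, 0.0983 and 0.0826), while the log2 fold change stayed between -0.83 and -0.60 in those fits. Against the control group the mice with hWJ-MSCs differed by 0.31 (95% interval -0.15 to 0.77, adjusted p = 0.265), and by 0.15 without control replicate 3.

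Tnfrsf10b encodes the mouse TRAIL receptor with a death domain. It had low scores of 12, 14, 16 and 12 in the control mice, 114, 88, 105 and 146 in the Con A + PBS mice and 44, 25, 21 and 34 in the Con A + hWJ-MSCs mice. The 3 groups did not overlap, and the highest mouse with hWJ-MSCs reached less than the lowest with PBS. Every gene of the table reaches a score of 64 in at least 2 mice, and Tnfrsf10b does so only through the Con A + PBS mice. Its place in the table thus rests on the group where it is high, which favours both differences from that group. The means were 13.5 ± 1.91, 113 ± 24.3 and 31.0 ± 10.2 (SD, n = 4). Tnfrsf10b rose 7.8-fold after Con A (log2 fold change 2.96, SE 0.28, limma adjusted p = 4.2e-06) and was 3.65-fold lower with hWJ-MSCs than with PBS (-1.87, SE 0.28, 95% interval -2.46 to -1.27, adjusted p = 0.0149). Without Con A + PBS replicate 4 the latter difference was -1.74 (adjusted p = 0.0305). The gene remained 2.14-fold above the control group with hWJ-MSCs (1.10, adjusted p = 0.0073), but quantile normalization lowered this to 0.60 (adjusted p = 0.13).

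Tnfrsf12a encodes FN14, the receptor of TWEAK, which lacks a death domain and is typically induced in injured tissue. Its scores were 98, 136, 166 and 123 in the control mice and 1574, 1109, 1364 and 2896 in the Con A + PBS mice. In the Con A + hWJ-MSCs mice they were 1158, 281, 833 and 865. All mice given Con A exceeded all control mice, and the Con A groups overlapped because hWJ-MSC replicate 1 was above Con A + PBS replicate 2. The mean rose from 131 ± 28.3 to 1736 ± 797 after Con A (SD, n = 4, log2 fold change 3.65, SE 0.39, limma adjusted p = 1.3e-05) and was 784 ± 366 with hWJ-MSCs, 5.38-fold above the control group (2.43, adjusted p = 4.9e-04). Between the Con A groups the difference was -1.22 (SE 0.39, 95% interval -2.07 to -0.37, adjusted p = 0.0567) and was not called. Without Con A + PBS replicate 2 it was -1.40 (adjusted p = 0.0386), and without replicate 4 it was -0.94 (adjusted p = 0.138). Without hWJ-MSC replicate 2, the lowest of its group, it was -0.78 and not called.

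**Figure D1:**
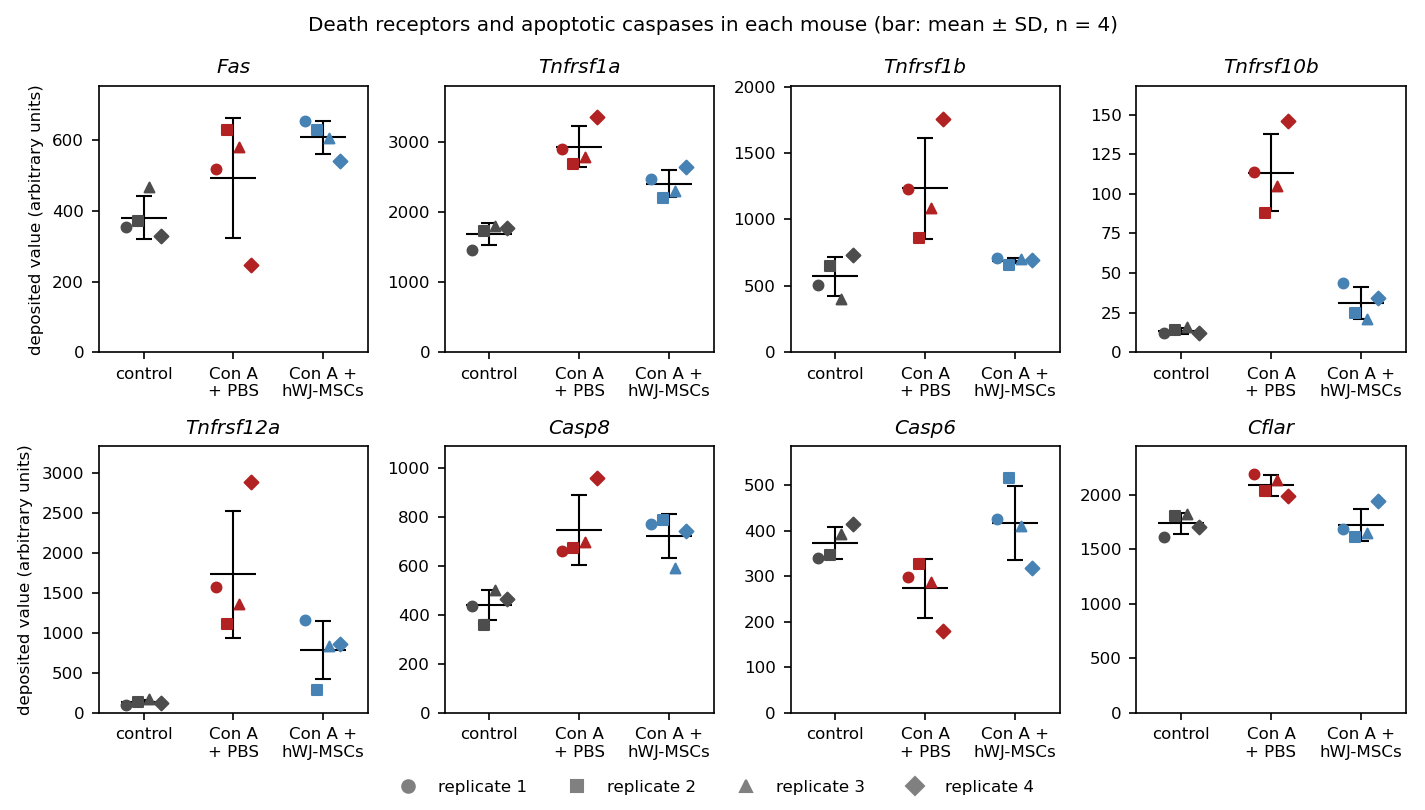
Deposited score (arbitrary units, linear axis from 0) of each of the 8 genes in each mouse, with 1 panel per gene and the 3 groups along the horizontal axis. Marker shapes give replicate numbers, and the bars are the mean ± SD of 4 mice. The 3 groups are apart for Tnfrsf1a and Tnfrsf10b, the mice with hWJ-MSCs lie from 660 to 706 for Tnfrsf1b, and Con A + PBS replicate 4 is the lowest of its group for Fas at 246 and Casp6 at 180.

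Casp8, the initiator caspase of the death receptor complexes, had 437, 358, 501 and 464 in the control mice. It had 660, 674, 696 and 960 in the Con A + PBS mice and 772, 786, 590 and 743 in the Con A + hWJ-MSCs mice. Every mouse given Con A was above every control mouse, and the Con A groups overlapped. Casp8 rose from 440 ± 60.6 to 748 ± 142 after Con A (SD, n = 4, log2 fold change 0.76, SE 0.15, limma adjusted p = 0.00103) and was 723 ± 90.3 with hWJ-MSCs, 1.64-fold above the control group (0.72, adjusted p = 0.00246). Between the Con A groups the difference was -0.04, with a 95% interval of -0.36 to 0.28 (adjusted p = 0.875). The sign of this small difference turned without Con A + PBS replicate 4 (0.086).

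Cflar, the inhibitor of CASP8 at the receptors, had 1616, 1806, 1825 and 1706 in the control mice. It had 2192, 2034, 2138 and 1986 in the Con A + PBS mice and 1682, 1616, 1646 and 1944 in the Con A + hWJ-MSCs mice. All Con A + PBS mice were above all mice of the other groups, and the mice with hWJ-MSCs overlapped the control mice. The means of 1738 ± 96.8, 2088 ± 94.2 and 1722 ± 150 (SD, n = 4) differed by 0.26 on the log2 scale between Con A + PBS and control (1.2-fold, limma adjusted p = 0.0279) and by -0.28 between hWJ-MSCs and PBS (95% interval -0.48 to -0.079, adjusted p = 0.0604). Neither reached the 1.5-fold limit, and Cflar was called in 0 of the 3 comparisons.

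Casp6, an executioner caspase that cleaves lamin A and can act on CASP8, had 340, 347, 392 and 414 in the control mice. It had 299, 328, 288 and 180 in the Con A + PBS mice and 426, 516, 410 and 318 in the Con A + hWJ-MSCs mice. All Con A + PBS mice were below all control mice, and only hWJ-MSC replicate 4 reached into the range of the Con A + PBS mice. The mean was 373 ± 35.6 in the control group and 274 ± 64.7 with Con A + PBS (SD, n = 4), a log2 difference of -0.48 with a limma adjusted p of 0.0452 that stayed under the 1.5-fold limit. Without Con A + PBS replicate 4 this difference was -0.29 (95% interval -0.61 to 0.033, adjusted p = 0.12). The mean was 418 ± 81.1 with hWJ-MSCs, 1.54-fold higher than with PBS (0.62, SE 0.19, 95% interval 0.22 to 1.03, adjusted p = 0.0477). This call stood close to both limits. It did not survive 9 of the 12 refits that omitted a single mouse, at adjusted p values from 0.0563 to 0.133, and without Con A + PBS replicate 4 the difference was 0.43 (adjusted p = 0.0966). It was also lost with eBayes without a trend (adjusted p = 0.0573), with only the 8 mice compared (0.0821) and with array weights (0.50, under the fold limit).

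Counted together, 5 of the 8 genes were called higher and 0 lower after Con A, where 38.8% of all genes were called in either direction. Without Con A + PBS replicate 4 these counts were 6, with Fas added, and 0, against 36.3% of all genes. In 6 of the 8 genes all Con A + PBS mice were above all control mice and in 1 all were below, against 27.1% and 23.4% of all genes, or 50.4% in either direction. The median log2 fold change was 0.78 over the 8 genes and 0.045 over all genes.

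With hWJ-MSCs against PBS, 1 of the 8 genes was called higher and 2 were called lower, where 8.58% of all genes were called in either direction. Without Con A + PBS replicate 4 only Tnfrsf10b was called, against 2.52% of all genes. In 4 of the 8 genes (Tnfrsf1a, Tnfrsf1b, Tnfrsf10b and Cflar) all mice with hWJ-MSCs were below all mice with PBS, against 11.6% of all genes, and in 0 they were all above, against 11.9%. The median log2 fold change was -0.28 over the 8 genes and 0.00024 over all genes. This comparison and the first share the Con A + PBS mice, so their values are not independent of each other.

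Against the control group, 4 of the 8 genes (Fas, Tnfrsf10b, Tnfrsf12a and Casp8) were called higher with hWJ-MSCs and 0 lower, where 13.6% of all genes were called higher and 13.1% lower, or 26.7% in either direction. The same 4 genes were called in the fit without Con A + PBS replicate 4, against 28.0% of all genes. In 5 of the 8 all mice with hWJ-MSCs were above all control mice, against 20.6% of all genes (37.9% without overlap in either direction).

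**Figure D2:**
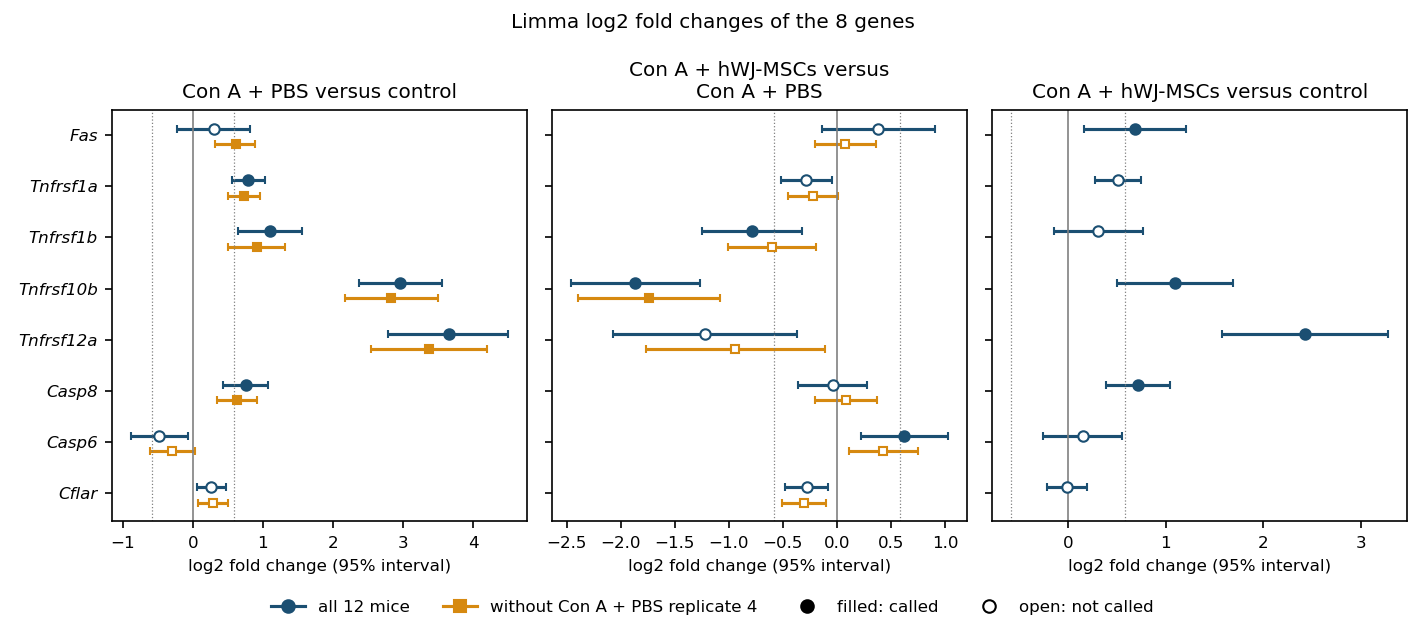
Log2 fold change of each of the 8 genes on the horizontal axis (scaled separately in each panel) with its 95% interval, in the 3 comparisons. Circles use all 12 mice, squares leave out Con A + PBS replicate 4 (drawn in the comparisons that involve its group), filled symbols were called, and dotted lines mark a fold change of 1.5. Tnfrsf10b at -1.87 is the only gene whose call in the middle panel is kept without that mouse.

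The balance of 2 gene pairs was compared within each mouse, as the difference of their log2 scores. A scale factor per mouse cancels in this difference, but a normalization by rank, as the scores repeated between mice would give, does not. Only the change between groups is read, since the level also reflects the lengths of the genes. Each pair holds a gene, Cflar or Tnfrsf1a, whose row lists a short transcript without a coding sequence, so the limit given above for these rows holds for both pairs. Casp8 minus Cflar was -1.88, -2.33, -1.86 and -1.88 in the control mice, -1.73, -1.59, -1.62 and -1.05 in the Con A + PBS mice and -1.12, -1.04, -1.48 and -1.39 in the Con A + hWJ-MSCs mice. All mice given Con A were above all control mice, and the Con A groups overlapped. The mean was 0.49 higher in the Con A + PBS group than in the control group (two-sided exact permutation test, p = 0.0286, the smallest that 4 against 4 allows, 0.0571 after Benjamini-Hochberg adjustment over 4 tests). It was 0.24 higher with hWJ-MSCs than with PBS (exact permutation p = 0.2, adjusted 0.267), and 0.39 higher without Con A + PBS replicate 4 (adjusted 0.0762).

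Tnfrsf1b minus Tnfrsf1a, the genes of TNF receptor 2 and TNF receptor 1, was -1.52, -1.40, -2.18 and -1.28 in the control mice. It was -1.23, -1.64, -1.36 and -0.94 in the Con A + PBS mice and -1.80, -1.73, -1.71 and -1.93 in the Con A + hWJ-MSCs mice. The mice with hWJ-MSCs were all below those with PBS, and the control mice overlapped both groups. The mean with hWJ-MSCs was 0.50 lower than with PBS, a difference of -0.50 (exact permutation p = 0.0286, adjusted 0.0571), and Con A + PBS differed from control by 0.30 (exact permutation p = 0.314, adjusted 0.314), or by 0.18 without Con A + PBS replicate 4 and by 0.11 without control replicate 3. None of the 4 pair tests passed 0.05 after adjustment, which this design could reach only if at least 3 of the 4 gave the smallest p.

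**Figure D3:**
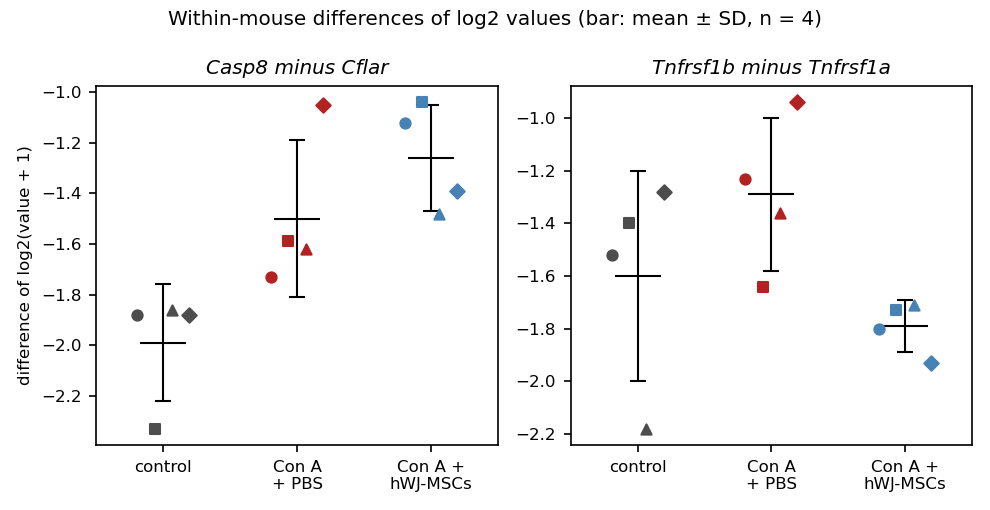
Difference of the log2(score + 1) values of 2 genes within each mouse (vertical axis, log2 units), for Casp8 minus Cflar and Tnfrsf1b minus Tnfrsf1a. Marker shapes give replicate numbers, and the bars are the mean ± SD of 4 mice. Casp8 minus Cflar has group means of -1.99, -1.50 and -1.26, and control replicate 2 lies lowest at -2.33.

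The other genes of the pathway were read from lists by role. Of 8 death ligands, Tnfsf10 (TRAIL) and Tnfsf12 (TWEAK) are in the table and neither was called in any comparison. Fasl, Tnf, Lta, Ltb, Tnfsf14 and Tnfsf15 are not in the table and were not analysed here. Tnfsf12, whose receptor is Tnfrsf12a, differed by 0.51 between hWJ-MSCs and PBS with all mice above (limma adjusted p = 0.0595). Of 12 adaptors and kinases, 1 was called higher and 1 lower after Con A, and 0 were called with hWJ-MSCs against PBS. Traf3, an adaptor that restrains non-canonical NF-κB signaling, rose 1.8-fold (adjusted p = 2.8e-05). Cradd, the adaptor of CASP2, fell by 1.02 on the log2 scale (adjusted p = 1.2e-04). The core adaptors differed after Con A by 0.21 for Fadd, 0.22 for Tradd and 0.19 for the kinase Ripk1, with adjusted p values of 0.119, 0.159 and 0.314. With 1 mouse left out these differences ran from 0.17 to 0.29 for Fadd, from 0.11 (without control replicate 3) to 0.28 for Tradd and from 0.034 (without control replicate 1) to 0.28 for Ripk1.

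Of 10 ubiquitin ligases and deubiquitinases of the TNF receptor complex and their partners, 6 were called higher and 0 lower after Con A, and 0 higher and 2 lower with hWJ-MSCs against PBS. Tnfaip3, which encodes the NF-κB-induced ubiquitin-editing enzyme A20, had 44, 75, 49 and 50 in the control mice, 838, 406, 623 and 1026 in the Con A + PBS mice and 171, 109, 132 and 206 in the Con A + hWJ-MSCs mice. Its 3 groups did not overlap, as with Tnfrsf10b. Tnfaip3 rose 12.6-fold after Con A (limma adjusted p = 1.1e-06) and was 4.53-fold lower with hWJ-MSCs than with PBS (log2 fold change -2.18, adjusted p = 0.00985). Birc3, which encodes the ligase cIAP2, was lower with hWJ-MSCs than with PBS (-0.67, adjusted p = 0.0188) after a difference of 0.57 following Con A (1.49-fold, adjusted p = 0.00155). Rnf31, the catalytic subunit of the linear ubiquitin ligase, rose 2.16-fold after Con A (adjusted p = 1.8e-05). Both calls with hWJ-MSCs, of Tnfaip3 and Birc3, were also made without Con A + PBS replicate 4. That of Birc3 was lost without Con A + PBS replicate 1 (adjusted p = 0.0696) or without hWJ-MSC replicate 2 or 3 (0.0609 and 0.0557).

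Of the 5 other apoptotic caspases, 1 was called higher (Casp2, 1.6-fold, limma adjusted p = 2.8e-04) and 1 lower after Con A. The latter was Casp9, the initiator caspase of the mitochondrial arm, which fell by 0.95 on the log2 scale (adjusted p = 6.7e-05). It remained lower than control with hWJ-MSCs (-0.87, adjusted p = 2.6e-04). With array weights the difference of Casp2 after Con A was 0.57, under the fold limit, so its call was lost.

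Of 4 caspase inhibitors and their regulators, 2 were called higher after Con A and 0 were called with hWJ-MSCs against PBS. Xaf1, an interferon-induced antagonist of XIAP, rose 5.3-fold (limma adjusted p = 4.3e-07) and Serpinb9, the inhibitor of granzyme B, rose 2.14-fold (adjusted p = 3.5e-04). Xiap itself differed by 0.54, at an adjusted p of 0.00307 and under the 1.5-fold limit. Of 7 genes of the mitochondrial arm, 3 were called higher (Apaf1, Cycs and Bid) and 1 lower (Aifm1) after Con A. Apaf1, the scaffold that activates CASP9, rose 4.11-fold (adjusted p = 2.1e-05), Cycs, which encodes cytochrome c, 1.9-fold (adjusted p = 9.0e-04) and Bid, the link from CASP8 to mitochondria, 1.61-fold (adjusted p = 0.00116). Apaf1 was also the 1 gene of this list called with hWJ-MSCs, 2.07-fold lower than with PBS (-1.05, adjusted p = 0.0252), a call that was lost without Con A + PBS replicate 1 or 4 (-0.93 and -0.89, adjusted p = 0.0781 and 0.0549) or without hWJ-MSC replicate 2 or 3 (adjusted p = 0.0767 and 0.0665).

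Of 6 caspase substrates and nuclease genes, 2 were called higher and 0 lower after Con A, and 0 were called with hWJ-MSCs against PBS. Krt18, a keratin of hepatocytes and bile ducts that caspases cleave, rose 2.99-fold and Lmna, the lamin that CASP6 cleaves, rose 2.39-fold after Con A (limma adjusted p = 1.3e-05 and 1.5e-05). Dffa, the inhibitor of the apoptotic nuclease, and Parp1, a DNA repair enzyme that caspases cleave, differed by -0.36 and -0.32 (adjusted p = 0.0187 and 0.0333), under the 1.5-fold limit. Of 10 other TNF receptor superfamily genes, 4 were called higher and 2 lower after Con A, which became 3 and 2 without Con A + PBS replicate 4, and 0 higher and 1 lower with hWJ-MSCs against PBS. Tnfrsf9, the T cell costimulatory receptor 4-1BB, had 2, 2, 7 and 2 in the control mice, 147, 112, 82 and 126 with Con A + PBS and 60, 17, 57 and 32 with hWJ-MSCs. It rose after Con A (log2 fold change 4.91 on the log2(score + 1) scale, adjusted p = 5.2e-06) and was lower with hWJ-MSCs than with PBS (-1.60, adjusted p = 0.0454), a call lost without any one of the mice of these groups. Ngfr, the p75 neurotrophin receptor with a death domain, had 45, 71, 88 and 98 in the control mice and 1, 4, 4 and 0 with Con A + PBS (-4.79, adjusted p = 4.8e-04). Tnfrsf9 reached 64, the score that every gene of the table has in at least 2 mice, only with Con A + PBS, and Ngfr only in control mice. Their place in the table thus rests on the group where each is high, which favours these differences.

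The livers also differed in the genes that mark cell types, and in whole tissue fewer cells of a type and less RNA per cell cannot be told apart. The summed score of 6 pan-leukocyte genes was 2326 to 2723 in the control mice, 3293 to 4676 with Con A + PBS and 2686 to 4309 with hWJ-MSCs. Of these 6 genes 3 were called higher after Con A and 0 were called with hWJ-MSCs against PBS, with a median log2 fold change of 0.037. The 6 neutrophil genes summed to 67 to 153, 884 to 1868 and 827 to 1725, with 6 called higher after Con A and 0 with hWJ-MSCs. The 3 natural killer cell genes in the table, of 6 listed, summed to 24 to 49, 486 to 875 and 446 to 976, with 3 called higher after Con A and 0 with hWJ-MSCs. Of 8 T cell genes only Cd8a and Lck are in the table, with sums of 15 to 37, 114 to 236 and 136 to 162, and Cd8a was listed at 0 in 1 control mouse. Of these, 2 were called higher after Con A and 0 were called with hWJ-MSCs against PBS. The sum of 114 was Con A + PBS replicate 4, with Cd8a at 38 and Lck at 76, against 78 to 98 and 104 to 138 in the other mice of its group. That mouse had the lowest sum of its group in each list of this paragraph. None of the 4 B cell genes is in the table.

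Markers of several resident cell types were lower after Con A. The 7 Kupffer cell and macrophage genes in the table summed to 3578 to 5977 in the control mice, 1091 to 1518 with Con A + PBS and 460 to 1475 with hWJ-MSCs, and 6 were called lower and 1 higher after Con A. The latter, Cd68, had 746 to 1018 with Con A + PBS, most of each sum there, and 181 to 944 with hWJ-MSCs. With hWJ-MSCs against PBS 0 were called and the median log2 fold change was 0.42, so the lower sums do not stand for the list. Clec4f, the defining marker of Kupffer cells, had 1282 to 1646 in the control mice and 43 to 76 with Con A + PBS. Of 5 monocyte genes 3 were called higher and 1 lower after Con A, with sums of 962 to 1238, 1214 to 1479 and 1148 to 1860. The 6 sinusoidal endothelial genes summed to 2063 to 2960, 1075 to 1516 and 1204 to 1476, with 1 called higher and 3 lower after Con A, and 1 higher and 2 lower with hWJ-MSCs against PBS. The 6 stellate cell genes summed to 4123 to 6810, 4773 to 5732 and 3236 to 4319, with 4 called lower after Con A and 1 called higher with hWJ-MSCs. Most of each sum was Dcn, at 2584 to 4938, 4466 to 5402 and 2870 to 3810. The median log2 fold change of the list was -1.65 after Con A and 0.56 with hWJ-MSCs against PBS. After Con A, 0 of the 7 hepatocyte genes found were called higher and 3 lower, and their sum went from 817611 to 1101208 in the control mice to 633408 to 656980 with Con A + PBS and 659552 to 699506 with hWJ-MSCs. Alb and Cps1 held 1 score each in all 12 mice, so these sums carry no difference in them. The highest control sum was that of replicate 1, where Ttr held 341028, the same score as Alb, against 72623 in the other control mice. The 3 cholangiocyte genes in the table, of 5 listed, summed to 2254 to 4431, 2340 to 13241 and 2208 to 6466, with 1 called higher after Con A. Most of each sum was Spp1. The sum of 13241 was Con A + PBS replicate 4, with Spp1 at 12230 against 1992 to 5925 in the other mice of its group. The part of these shifts in the changes of the 8 genes was not tested.

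The profiles of the 8 genes over the 12 mice differed among themselves. As the root mean square difference of log2 scores after subtraction of each gene's control mean, the closest pair was Tnfrsf1a and Casp8 (0.21), followed by Tnfrsf1a and Tnfrsf1b (0.33), while the strongly raised Tnfrsf10b and Tnfrsf12a differed by 0.96. Among all genes, those most like each one were Plin2 (0.32) and Gm26809 (0.34) for Tnfrsf10b, Btg3 (0.37) and Tes (0.40) for Tnfrsf12a, and Dcp2 (0.18) and Unc5b (0.19) for Tnfrsf1b. They were Yap1 (0.062) and Nek6 (0.064) for Tnfrsf1a, C1rl (0.14) and Dnajb4 (0.16) for Fas, and Tuft1 (0.13) and Khdrbs1 (0.15) for Casp8. For Casp6 they were Cab39l and Cdhr5 (both 0.12), and for Cflar Gtpbp3 (0.067). Plin2, for example, which encodes a coat protein of lipid droplets, had log2 fold changes of 2.76 after Con A and -1.38 with hWJ-MSCs against PBS, beside 2.96 and -1.87 for Tnfrsf10b. Of the 16 genes found in this way, 11 were also named with a pseudocount of 10 and 8 without Con A + PBS replicate 4, settings chosen after the data were seen.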

How the data were processed

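Poly(A) RNA from mouse liver had been made into NEBNext Ultra libraries and sequenced on an Illumina NovaSeq. The submitters' processing notes name Bowtie2 2.2.1, RSEM 1.2.18 and mm10, and the study's methods name DESeq2 for its own gene lists. The authors deposited a whole-number score for each gene and mouse, already normalized between mice by a method not given in the sources used here. How reads of the infused human cells were handled is also not given. Every gene of the table reaches a score of 64 in at least 2 mice, and 0 columns of per-sample values were left out. A gene below this score throughout a group is in the table only through other groups, which favours a difference between them.

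After adding 1 and taking log2, the scores were modelled in R 4.3.3 by limma 3.58.1 (lmFit, then eBayes with a trend), in 1 model of all 12 mice without covariates, after the script had been tested on simulated data. A call required a fold change above 1.5 and an adjusted p below 0.05 (Benjamini-Hochberg, over all 11289 genes). A fold change on this scale understates the change of low genes. Within-mouse pair differences were compared by two-sided exact permutation over the 70 regroupings of 4 against 4 mice. Python 3.11.15, pandas 2.3.3, numpy 2.4.6 and matplotlib 3.10.9 were used for the rest. Depth is unknown, so no counting error is given. Count models such as DESeq2 were not run because the scores are not counts.

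The 8 genes and all lists were chosen with earlier results of these data known. The text names the 8 genes, from each pathway list up to 2 genes with the largest change among those called after Con A and up to 2 among those called with hWJ-MSCs against PBS, fixed pathway genes (Casp9, Fadd, Tradd, Ripk1, Xiap and Bid), and the 2 genes most like each of the 8. Some genes that meet this rule are not reported here. Tnfsf10, Tnfsf12, Dffa, Parp1, Aifm1, Tnfrsf22, Tnfrsf23, Plin2 as an example and Eda2r were described after their values were seen. The alternatives tried were quantile normalization, median centring, a pseudocount of 10, a minimum mean score of 100, array weights, a fit of only the 8 mice compared, eBayes without its trend, the unadjusted p, a fold change limit of 2 or none, the replicate number as a block, and leaving out each mouse in turn.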

Additional observations from a re-analysis of the deposited data

Results flagged for a closer look

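In 90 groups of 4 mice, covering the 8 genes, the other named pathway genes and the 2 gene pairs, 4 groups held a mouse far from the other 3, where chance flags about 1 group in 20. Gaps and ranges were taken on the log2 scale. Casp8 was at 960 in Con A + PBS replicate 4, a gap to the next mouse of 0.858 of the group's range, and the other 3 mice had 660 to 696. Casp8 minus Cflar was -2.33 in control replicate 2 (gap 0.954 of the range), whose Casp8 score of 358 was the lowest of its group. Casp9 was at 240 in Con A + hWJ-MSCs replicate 2 (gap 0.943), where the other 3 mice had 179 to 182. Tnfrsf9 was at 7 in control replicate 3 (gap 1.0), where each of the other 3 mice had 2, a difference of few units at a low score.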

How the results depend on the processing

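With a fold change above 2, the number of the 8 genes called was 3 after Con A, 1 with hWJ-MSCs against PBS and 2 with hWJ-MSCs against control, in place of 5, 3 and 4. The share of all genes called is given only for the main fit and the fit without Con A + PBS replicate 4, where it went from 8.58% to 2.52% between the Con A groups. For the other settings of this section the counts stand without that share, so they cannot be set against a change in all genes. Over the fits that each left out 1 mouse these counts ran from 5 to 6, from 0 to 4 and from 3 to 4, and the count of 3 fell to 0 without Con A + PBS replicate 1 or hWJ-MSC replicate 3, and to 1 without Con A + PBS replicate 3 or 4 or hWJ-MSC replicate 1 or 2. A mean score of at least 100 drops Tnfrsf10b from the table, which leaves 4, 2 and 3. The count between the Con A groups was 2, without Casp6, with eBayes without a trend, with only the 8 mice compared or with array weights.

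The sign of small differences turned in 20 combinations of gene, comparison and setting. With array weights, hWJ-MSCs against PBS gave 0.058 for Casp8, 0.011 for Bid, 0.11 for Cycs and 0.0033 for Ripk1. With 1 mouse left out it ran from -0.094 to 0.086 for Casp8, -0.064 to 0.071 for Bid, -0.017 to 0.12 for Casp9, -0.16 to 0.14 for Cycs and -0.059 to 0.03 for Fadd, and against control from -0.075 to 0.013 for Cflar and -0.048 to 0.2 for Ripk1. None of these differences was called in any of the fits.

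The replicate numbers of the labels belong to different animals, and same-numbered mice did not deviate together in every pair (correlations from -0.113 to 0.168 for Con A against control, -0.087 to 0.375 for hWJ-MSCs against PBS and -0.118 to 0.112 for hWJ-MSCs against control). With the replicate block the counts were 5, 4 and 4, with Tnfrsf12a added between the Con A groups (-1.22, limma adjusted p = 0.0398). The pair differences of 0.49, 0.24, 0.30 and -0.50 had adjusted p values of 0.25, 0.375, 0.333 and 0.25 within pairs (exact permutation of signs, where 4 pairs cannot go below 0.125). The paired tests could therefore not pass 0.05. With 1 mouse left out, the adjusted p values of the 4 pair differences ran from 0.0571 to 0.6 (exact permutation over the 35 regroupings of 3 against 4 mice). With a pseudocount of 10 or quantile normalization the adjusted p values were as in the report.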

Other observations

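Mice carry 2 further TRAIL receptors, Tnfrsf22 and Tnfrsf23, which are decoys without a death domain. Tnfrsf23 had 8, 9, 1 and 5 in the control mice, 87, 58, 76 and 148 in the Con A + PBS mice and 41, 21, 32 and 44 in the Con A + hWJ-MSCs mice. Its 3 groups did not overlap. It rose 15.3-fold after Con A on the log2(score + 1) scale (limma adjusted p = 5.1e-05), from low control scores. Between hWJ-MSCs and PBS it differed by -1.36 (SE 0.51, adjusted p = 0.0844), which was not called. Like Tnfrsf10b, it reached 64, the score that every gene of the table has in at least 2 mice, only with Con A + PBS. This favours both differences. Tnfrsf22 had 136 to 244 in the control mice, 152 to 184 with Con A + PBS and 85 to 148 with hWJ-MSCs, and differed after Con A by -0.26 (adjusted p = 0.312). With hWJ-MSCs it was lower than in the control group (-0.71, adjusted p = 0.0165), although the groups overlapped. Both genes were described after their values were seen.

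Eda2r, another TNF receptor superfamily gene, was listed at 0 in control replicate 1 and at 103, 104 and 98 in the other control mice, against 248 to 289 with Con A + PBS. Aifm1, which encodes a mitochondrial flavoprotein, had 1726 to 2012 in the control mice, 934 to 1069 with Con A + PBS and 1229 to 1506 with hWJ-MSCs, without overlap between the groups. It fell by 0.93 on the log2 scale after Con A (limma adjusted p = 1.1e-05) and differed by 0.48 between hWJ-MSCs and PBS (adjusted p = 0.0218, 1.39-fold, under the limit for a call).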
